A study of Rattus norvegicus with 9 samples.

Results

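The genes described here are those of glutathione, peroxiredoxin, thioredoxin and NRF2-linked antioxidant defence in heart muscle cells of newborn rats under hypertrophic growth. They were chosen by symbol: the glutathione transferases of classes alpha, kappa, mu, omega, pi and theta, the microsomal transferases, glutathione peroxidases, peroxiredoxins, superoxide dismutases, thioredoxins and their reductases, with Gclc, Gclm, Gss, Gsr, Nqo1, Nqo2, Hmox1, Hmox2, Srxn1, Cat, Nfe2l2 and Keap1. Of 17327 genes in the deposited read count table, 58 had such a symbol and 48 of these had at least 10 reads in 3 or more samples. The other 10 (Gpx2, Gpx5, Gpx6, Gsta2, Gsta3, Gsta5, Gstm5, Gstm6, Gstm6l and Gstt4) had at most 15 reads in any sample. Gstm3, with 3 to 12 reads per sample, met the rule but not the filter of the test, so 47 of the 48 were tested.

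RNA was sequenced from primary ventricular myocytes kept for 48 h with the alpha-adrenergic agonist phenylephrine at 50 µM, with insulin-like growth factor 1 (IGF1) at 10 nM, or with vehicle, in 3 samples each. Strain, genotype, sex, the number of litters pooled and the composition of the vehicle are not given in the sources used here. Nothing in the labels states that samples of 1 group were grown or isolated separately, and p-values therefore cover only the variation among these 9 samples, which may be technical.

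NRF2 is a transcription factor that the adaptor KEAP1 holds for degradation. When oxidants or electrophiles modify KEAP1, NRF2 pairs with a small Maf protein and binds antioxidant response elements near genes of glutathione synthesis, thioredoxin reduction, quinone reduction and heme breakdown. Glutathione and thioredoxin are the main thiol systems that pass electrons from NADPH to peroxidases, and cardiac myocytes, rich in mitochondria, depend on them to remove hydrogen peroxide.

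RefSeq promoter sequences of 300 bases (250 before to 50 after the gene start, build GRCr8) were at hand for 40 of the 48 genes, all 48 having been matched by symbol. The core of the antioxidant response element, TGACNNNGC on either strand, was in 10 of the 40 (25%): Gclm, Gsta1, Gstm7, Gstp1, Hmox2, Nfe2l2, Prdx1, Prdx4, Prdx5 and Sod2. It was in 12.1% of all 33469 promoters of the same length in that table. That set was not limited to the genes tested here, so the 2 shares are of unlike sets. The AP-1 site TGACTCA, on either strand, was in 4 of the 40 (Gsto1, Gstp1, Prdx1 and Srxn1), and in 4.63% of all promoters. In Gstp1 and Prdx1 the core match overlapped it. The promoters below, each 5′ to 3′ along its gene with the core match in capitals, are those of the gene that fell most with IGF1 (Gstp1, chr1:210769656-210769955, minus strand), the gene that fell most with phenylephrine (Gstm7, chr2:198260270-198260569, minus strand), a gene that rose with both (Prdx1, chr5:135383656-135383955, plus strand) and a gene that passed the test with neither (Gclm, chr2:213031885-213032184, plus strand).
Gstp1: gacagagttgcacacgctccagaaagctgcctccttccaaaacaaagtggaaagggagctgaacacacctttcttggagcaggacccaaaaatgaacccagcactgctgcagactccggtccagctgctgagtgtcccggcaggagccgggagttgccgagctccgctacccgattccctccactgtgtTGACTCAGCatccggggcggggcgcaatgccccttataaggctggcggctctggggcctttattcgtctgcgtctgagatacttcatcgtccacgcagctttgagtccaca
Gstm7: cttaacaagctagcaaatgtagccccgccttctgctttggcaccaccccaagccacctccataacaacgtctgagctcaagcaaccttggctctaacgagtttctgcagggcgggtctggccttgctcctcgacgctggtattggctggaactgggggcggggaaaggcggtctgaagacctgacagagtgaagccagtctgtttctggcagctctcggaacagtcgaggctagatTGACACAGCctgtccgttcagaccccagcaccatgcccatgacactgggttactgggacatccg
Prdx1: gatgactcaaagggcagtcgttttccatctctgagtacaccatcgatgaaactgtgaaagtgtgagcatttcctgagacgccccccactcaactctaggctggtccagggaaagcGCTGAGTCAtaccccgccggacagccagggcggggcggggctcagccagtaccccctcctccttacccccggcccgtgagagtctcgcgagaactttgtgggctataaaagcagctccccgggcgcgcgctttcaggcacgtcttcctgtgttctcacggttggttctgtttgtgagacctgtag
Gclm: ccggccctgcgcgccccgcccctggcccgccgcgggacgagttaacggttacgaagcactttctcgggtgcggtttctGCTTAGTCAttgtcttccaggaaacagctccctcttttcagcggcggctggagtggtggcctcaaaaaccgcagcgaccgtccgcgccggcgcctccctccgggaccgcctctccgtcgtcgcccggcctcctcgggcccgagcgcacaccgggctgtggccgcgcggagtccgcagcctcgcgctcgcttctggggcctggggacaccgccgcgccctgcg
The matches began at positions -61, -14, -135 and -172 from the gene start. These 4 genes were picked because they hold the core and differ in response, so that difference is not a result. The core was in 2 of 10 promoters of genes that rose with phenylephrine, 3 of 15 of those that fell and 5 of 14 of those that passed in neither direction. With IGF1 these counts were 3 of 8, 3 of 14 and 4 of 17. A match is a string of letters and not a site shown to be bound.

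Libraries held 31274396 to 33607863 counts with phenylephrine, 31987197 to 46221459 with IGF1 and 38659775 to 48505265 with vehicle. A level of 1 CPM (counts scaled to a common library size with edgeR's TMM factors, and not by gene length, so levels are compared only within a gene) rested on 29.1 to 51.6 reads. The 48 genes took 0.585% to 0.610% of counts with phenylephrine, 0.532% to 0.585% with IGF1 and 0.661% to 0.680% with vehicle. IGF1 replicate 1 stood apart. Median absolute log2 differences of the tested antioxidant genes were 0.12 and 0.11 between it and the other IGF1 samples. For the other pairs of a group they were 0.04 to 0.08. Over all tested genes, 1091 and 1021 differed by more than 1.5-fold in its pairs, against 517 to 799 in the other pairs. This sample also enters the estimate of spread that all comparisons share. Where a call of an antioxidant gene changes without it, the value without it is given too. All 10 cardiomyocyte markers were detected, with summed levels of 49060 to 49680 CPM with phenylephrine, 40440 to 57040 CPM with IGF1 and 31220 to 33550 CPM with vehicle. By gene, 6 were called higher and 4 lower with phenylephrine, and 7 higher and 1 lower with IGF1. Actc1 weighed heavily in the sums, with means of 18460 CPM with phenylephrine and 6023 CPM with vehicle. It had 18330, 8292 and 8631 CPM in the IGF1 samples. Fibroblast markers were also present, at 4690 to 4784 CPM with phenylephrine, 5941 to 6858 CPM with IGF1 and 5053 to 6042 CPM with vehicle. Epicardial markers summed to 35.8 to 48.8 CPM and Schwann cell markers to 8.41 to 15.7 CPM over all samples, and erythroid markers to 0.320 to 1.15 CPM.

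With phenylephrine, the redox enzymes Srxn1, Sod3, Gclc, Nqo1, Gss and Txn1 rose and many glutathione transferases fell, most of all Gstm7. The transferases Mgst2 (log2 fold change 0.59) and Gsto1 (0.21) rose, in calls that ended with library size only. Of the 47 genes tested, 15 (31.9%) were higher and 16 (34.0%) lower than with vehicle, and 16 did not pass an adjusted p of 0.05 in edgeR's quasi-likelihood test. Over all 11873 genes tested, 27.9% were higher and 28.9% lower, so the shares of the antioxidant genes lay near the background. At least 1.5-fold changes were counted in 5 genes (10.6%) that rose and 6 (12.8%) that fell, against 7.57% and 10.0% of all genes. The median log2 fold change was -0.04 over the 47 genes and -0.03 over all genes.

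With IGF1, by contrast, falls outnumbered rises. Gstp1, Gstt2, Hmox1, Cat, Mgst1, Mgst2, Srxn1 and Txnrd1 fell and Gstt3, Prdx3 and Sod2 rose. In all, 8 genes (17.02%) were higher and 19 (40.4%) lower than with vehicle, against 24.7% and 23.4% of all genes. At least 1.5-fold, 1 gene (2.13%) rose and 6 (12.8%) fell, against 5.76% and 5.90% of all genes. The median was -0.10 over the 47 genes and -0.0018 over all genes.

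**Figure D1:**
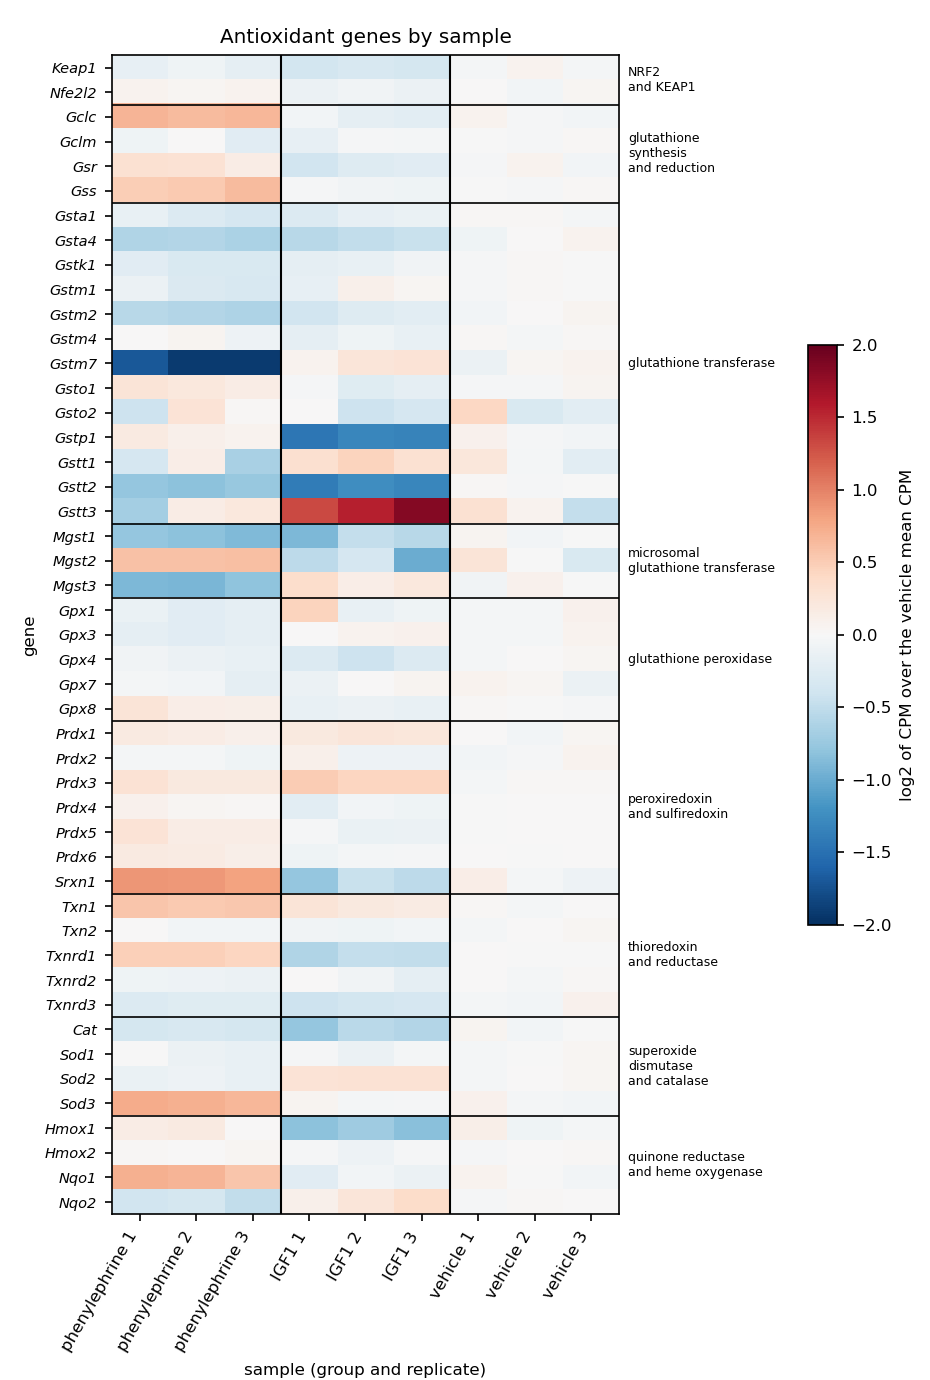
Heat map of the 47 tested genes (one per line, grouped by family) in the 9 samples (columns), coloured by log2 of the CPM over the vehicle mean CPM of that gene, red above and blue below. Gstm7 is the deepest blue in the phenylephrine samples, Gstp1 and Gstt2 in the IGF1 samples, and Gstt3 is red in the IGF1 samples.

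Set against each other, the treatments differed in 31 of the 47 genes. Phenylephrine gave higher levels than IGF1 in 21 (44.7%) and lower levels in 10 (21.3%), against 27.1% of all genes in each direction. With at least 1.5-fold, these were 9 genes (19.1%) and 5 (10.6%), against 7.65% and 10.1% of all genes. The median was 0.11 over the 47 genes and -0.0025 over all genes. Both treatments were compared with the same vehicle samples, so their fold changes against vehicle are given side by side and not correlated. The counts are tied to the scaling: with library size only, 7 genes rose and 26 fell with phenylephrine, 6 and 31 did with IGF1, and 15 and 18 were higher and lower with phenylephrine than with IGF1.

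By pair of calls, 7 genes (14.9%) rose with phenylephrine and fell with IGF1 (Gclc, Gpx8, Gsr, Gsto1, Mgst2, Srxn1 and Txnrd1), against 3.18% of all genes. A further 4 (8.51%) fell with phenylephrine and rose with IGF1 (Gstm7, Mgst3, Nqo2 and Sod2), against 4.88% of all genes. Of 10 fibroblast markers, 5 fell and 1 rose with phenylephrine, and 5 rose and 2 fell with IGF1, but these were in part different genes. Col3a1 (-0.43 and 0.55) and Postn (-0.27 and 0.73) fell with phenylephrine and rose with IGF1. Pdgfra (-0.38 and -0.39) and Mfap5 (-0.77 and -0.92) fell with both, and Tcf21 passed with neither (0.06 and -0.04). The part of fibroblasts in the result was not tested. In bulk samples, a change in the number of cells of a type and a change in RNA per cell cannot be told apart. For all 11 antioxidant genes the direct comparison of phenylephrine with IGF1 also passed. With library size only, the phenylephrine rises of Gpx8, Gsr, Gsto1 and Mgst2 and the IGF1 rises of Gstm7 and Nqo2 were not called. The IGF1 falls of Gclc, Gpx8, Gsto1 and Mgst2 were not called without vehicle replicate 1. Another 9 (19.1%, against 12.5% of all genes) fell with both (Cat, Gpx4, Gsta1, Gsta4, Gstm2, Gstt2, Keap1, Mgst1 and Txnrd3) and 3 (6.38%, against 12.3%) rose with both (Prdx1, Prdx3 and Txn1). These pairs rest on the shared vehicle samples. Neither comparison with vehicle passed for Gclm, Gpx1, Gpx7, Gstm4, Gsto2, Gstt1, Hmox2, Prdx2, Prdx4, Sod1, Txn2 and Txnrd2.

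**Figure D2:**
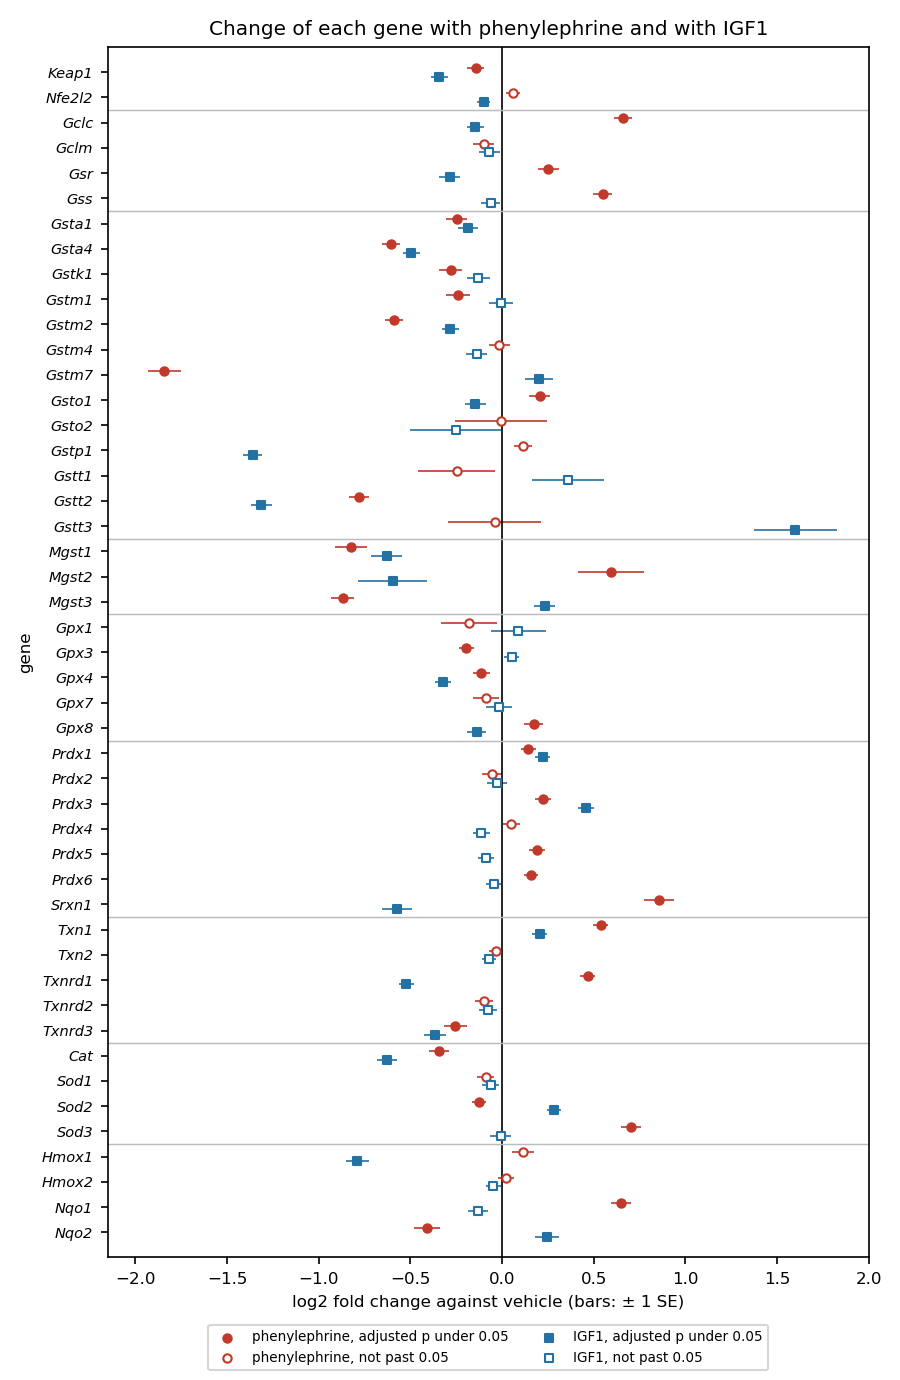
Log2 fold change against vehicle (x axis, with bars of 1 SE) of the 47 tested genes (y axis, grouped by family) with phenylephrine (red circles) and IGF1 (blue squares); filled symbols passed the adjusted p of 0.05. Srxn1 and Txnrd1 lie right of 0 with phenylephrine (0.86 and 0.47) and left of it with IGF1 (-0.57 and -0.52).

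The transcript of the pathway's factor changed little, and that of its sensor was 1.27-fold lower with IGF1. Nfe2l2, which encodes NRF2, had 216, 211 and 215 CPM with phenylephrine, 190, 195 and 190 CPM with IGF1 and 208, 199 and 210 CPM with vehicle. Its phenylephrine samples all lay just above the vehicle samples without passing the test (log2 fold change 0.06, SE 0.04, adjusted p = 0.21), and the difference was -0.14 with library size only (adjusted p = 0.02). The IGF1 samples lay below the vehicle samples, 1.07-fold lower (-0.10, SE 0.04, adjusted p = 0.039), a call that ended without vehicle replicate 1 or 3, phenylephrine replicate 2 or 3, or IGF1 replicate 3 (adjusted p = 0.055 to 0.11). Between phenylephrine and IGF1 it was 1.12-fold higher with phenylephrine (adjusted p = 0.0025), but not past the threshold with library size only (adjusted p = 0.4).

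Keap1, the repressor of NRF2, had 87.6, 92.1 and 86.0 CPM with phenylephrine, 76.2, 78.4 and 77.0 CPM with IGF1 and 94.8, 103 and 95.4 CPM with vehicle. No samples overlapped between groups, with vehicle highest and IGF1 lowest. It was 1.10-fold lower with phenylephrine (log2 fold change -0.14, SE 0.05, adjusted p = 0.015) and 1.27-fold lower with IGF1 (-0.34, SE 0.05, adjusted p = 2.3e-05). The phenylephrine call ended without vehicle replicate 2, phenylephrine replicate 1 or phenylephrine replicate 3 (adjusted p = 0.053 to 0.074). The IGF1 call did not depend on any 1 sample. NRF2 activity is set largely at the protein level, which these counts do not measure.

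Of 4 genes of glutathione synthesis and reduction, 3 rose and none fell with phenylephrine, and 2 fell with IGF1. Among all genes tested, 27.9% rose and 28.9% fell with phenylephrine, and 23.4% fell with IGF1. Gclc encodes the catalytic subunit of glutamate-cysteine ligase, which makes the rate-limiting step of glutathione synthesis. It had 128, 122 and 126 CPM with phenylephrine, 76.4, 70.4 and 68.8 CPM with IGF1 and 83.2, 78.3 and 76.7 CPM with vehicle. The phenylephrine samples stood well above the rest, 1.58-fold higher than vehicle (log2 fold change 0.66, SE 0.05, adjusted p = 4e-08). The IGF1 samples lay slightly below vehicle, 1.11-fold lower (-0.14, SE 0.05, adjusted p = 0.024), and this small fall was not called without vehicle replicate 1, IGF1 replicate 2 or IGF1 replicate 3 (adjusted p = 0.052 to 0.092).

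Gclm, the modifier subunit of the same ligase, had 52.3, 55.7 and 47.8 CPM with phenylephrine, 49.7, 54.9 and 54.3 CPM with IGF1 and 55.6, 54.9 and 56.5 CPM with vehicle. Its 3 groups overlapped, and neither treatment passed (-0.10 with phenylephrine, adjusted p = 0.15, and -0.07 with IGF1, adjusted p = 0.33). With phenylephrine it was called lower without phenylephrine replicate 2 (-0.15, adjusted p = 0.049) and with library size only (-0.29). The ligase subunits thus had log2 fold changes of 0.66 (Gclc) and -0.10 (Gclm) with phenylephrine.

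Gss, glutathione synthetase, catalyses the next step and had 44.8, 45.8 and 49.5 CPM with phenylephrine, 31.4, 30.4 and 30.0 CPM with IGF1 and 31.7, 31.5 and 32.5 CPM with vehicle. Phenylephrine was above both other groups in every sample, 1.46-fold higher than vehicle (log2 fold change 0.55, SE 0.05, adjusted p = 6e-07) and 1.53-fold higher than IGF1. IGF1 and vehicle samples lay close together (-0.06, adjusted p = 0.36).

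Gsr, glutathione reductase, returns oxidised glutathione to its reduced form at the cost of NADPH. It had 65.6, 65.3 and 59.2 CPM with phenylephrine, 41.0, 44.3 and 45.5 CPM with IGF1 and 52.3, 56.0 and 51.4 CPM with vehicle. The groups did not overlap, with phenylephrine highest (log2 fold change 0.25, SE 0.06, adjusted p = 0.0013 against vehicle) and IGF1 lowest (-0.28, SE 0.06, adjusted p = 7e-04 against vehicle). With library size only the phenylephrine rise shrank to 0.06 (adjusted p = 0.48).

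The glutathione peroxidases, which reduce peroxides with glutathione, changed by at most 1.25-fold in any called case against vehicle. Gpx4, the enzyme that reduces lipid hydroperoxides in membranes, had 218, 210 and 206 CPM with phenylephrine, 189, 171 and 188 CPM with IGF1 and 222, 229 and 234 CPM with vehicle. It was 1.25-fold lower with IGF1 (log2 fold change -0.32, SE 0.05, adjusted p = 3.9e-05) and 1.08-fold lower with phenylephrine (-0.11, SE 0.05, adjusted p = 0.048). The phenylephrine value sits at the threshold and was not called by DESeq2 (0.066), limma-voom (0.05), without either of vehicle replicates 2 and 3 or without either of phenylephrine replicates 2 and 3 (0.081 to 0.17).

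Gpx1, the abundant cytosolic peroxidase, had 89.4, 83.3 and 86.5 CPM with phenylephrine, 133, 87.9 and 92.2 CPM with IGF1 and 94.9, 95.3 and 103 CPM with vehicle. IGF1 replicate 1 was far above its 2 companions, and with it neither treatment passed (-0.18, adjusted p = 0.36 with phenylephrine, and 0.09, adjusted p = 0.67 with IGF1). Without IGF1 replicate 1, Gpx1 was lower with phenylephrine (-0.18, adjusted p = 8.2e-05) and the sign with IGF1 turned to -0.12 (adjusted p = 0.015). Of the others, the secreted Gpx3 fell with phenylephrine (-0.19), and Gpx7, of the endoplasmic reticulum, passed with neither treatment. Gpx8, also of the endoplasmic reticulum, rose with phenylephrine (0.17, but -0.02 with library size only) and fell with IGF1 (-0.14). The Gpx8 rise was not called without vehicle replicate 2 or 3 or phenylephrine replicate 1 (0.053 to 0.063), and the fall was not called without any 1 vehicle sample or IGF1 replicate 2 or 3 (0.054 to 0.099).

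Soluble glutathione transferases, which join glutathione to electrophiles, fell more often than they rose. Of 13 tested, 7 fell and 1 rose with phenylephrine, and 6 fell and 2 rose with IGF1. Over all genes, 28.9% fell and 27.9% rose with phenylephrine, and 23.4% fell and 24.7% rose with IGF1. Several of the transferase genes lie side by side in the rat genome. Gstm4, Gstm1, Gstm2 and Gstm3 are neighbours, as are Gstt1 and Gstt3, and Gsto1 and Gsto2. Their sequences were not compared, and how reads matching several of them were counted is not given, so their single values are uncertain.

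Gstm7, of the mu class, changed most with phenylephrine. It had 7.90, 6.78 and 6.79 CPM with phenylephrine, 26.9, 30.4 and 31.1 CPM with IGF1 and 23.7, 26.4 and 26.8 CPM with vehicle. Each phenylephrine sample was under 8 CPM and no other sample was under 23 CPM. Phenylephrine gave a 3.58-fold lower level than vehicle (log2 fold change -1.84, SE 0.09, adjusted p = 5.7e-10) and a 4.13-fold lower level than IGF1 (-2.05, SE 0.09, adjusted p = 9.5e-11). The small IGF1 rise (0.20, adjusted p = 0.042) was not called without any 1 vehicle sample, phenylephrine replicate 2 or 3, or IGF1 replicate 2 or 3 (0.052 to 0.22), nor with library size only (0.29).

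Gstm2, of the same class, had 250, 245 and 241 CPM with phenylephrine, 283, 308 and 318 CPM with IGF1 and 354, 369 and 383 CPM with vehicle. Every group was apart from the others, in the order vehicle, IGF1, phenylephrine, being 1.5-fold lower with phenylephrine (log2 fold change -0.59, SE 0.05, adjusted p = 1.1e-07) and 1.22-fold lower with IGF1 (-0.28, SE 0.05, adjusted p = 0.00019). Gstm1 fell with phenylephrine (-0.24, adjusted p = 0.0065), while Gstm4 passed in neither comparison with vehicle.

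Gstp1, the pi class enzyme, changed most among the falls with IGF1. It had 414, 392.3 and 382 CPM with phenylephrine, 135, 148 and 144 CPM with IGF1 and 387, 359 and 350 CPM with vehicle. All IGF1 samples lay under 150 CPM and all others over 350 CPM. IGF1 was 2.57-fold lower than vehicle (log2 fold change -1.36, SE 0.05, adjusted p = 9.6e-11) and phenylephrine 2.78-fold higher than IGF1 (1.48, SE 0.05, adjusted p = 1.1e-11). Phenylephrine and vehicle samples overlapped (0.12, adjusted p = 0.061), with a call of higher without vehicle replicate 1 (0.15, adjusted p = 0.035) or IGF1 replicate 1 (0.12, adjusted p = 0.0033).

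Gstt2, of the theta class, had 27.1, 26.1 and 27.3 CPM with phenylephrine, 17.5, 19.4 and 18.7 CPM with IGF1 and 47.1, 45.5 and 45.8 CPM with vehicle. The 3 groups were apart, with IGF1 lowest, 2.48-fold lower than vehicle (log2 fold change -1.31, SE 0.06, adjusted p = 3.1e-10), and phenylephrine 1.72-fold lower (-0.78, SE 0.06, adjusted p = 2.9e-08). The nearby Gstt3 went the other way with IGF1, at 1.41, 2.49 and 2.62 CPM with phenylephrine, 5.63, 6.62 and 8.07 CPM with IGF1 and 2.77, 2.37 and 1.61 CPM with vehicle. It was 3.03-fold higher with IGF1 (log2 fold change 1.60, SE 0.23, adjusted p = 5.5e-05), on 41 to 385 reads per sample, and 1.71 on the log2 scale without IGF1 replicate 1. Its phenylephrine and vehicle samples overlapped (-0.04, adjusted p = 0.9).

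Gstt1, next to Gstt3, had 1.89, 2.62 and 1.52 CPM with phenylephrine, 2.995, 3.25 and 2.96 CPM with IGF1 and 2.79, 2.32 and 2.06 CPM with vehicle, on 47 to 144 reads. It passed only between the treatments, 1.52-fold lower with phenylephrine than with IGF1 (log2 fold change -0.61, SE 0.21, adjusted p = 0.022), and not without phenylephrine replicate 1 or 3 or IGF1 replicate 2 (0.061 to 0.1).

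Gsta4, which clears the lipid peroxidation product 4-hydroxynonenal, had 58.3, 58.4 and 57.0 CPM with phenylephrine, 59.8, 62.8 and 64.8 CPM with IGF1 and 83.3, 88.7 and 91.9 CPM with vehicle. Vehicle samples were highest, and the treated samples did not overlap them (log2 fold change -0.60, SE 0.05, adjusted p = 9.2e-08 with phenylephrine, and -0.49, SE 0.05, adjusted p = 8.8e-07 with IGF1). Between the treatments it did not pass (-0.11, adjusted p = 0.068) unless IGF1 replicate 1 was left out (-0.14, adjusted p = 0.0071). Gsta1 also fell with both (-0.25 and -0.19), Gstk1, a mitochondrial and peroxisomal enzyme, fell with phenylephrine (-0.28; against IGF1 -0.15, adjusted p = 0.062, but -0.18, adjusted p = 0.035, without IGF1 replicate 1), and Gsto2 passed in no comparison. Gsto1, which reduces dehydroascorbate, was the soluble transferase that rose with phenylephrine (0.21, adjusted p = 0.0066, but 0.01 with library size only). Its fall with IGF1 (-0.15, adjusted p = 0.046) was not called when any 1 sample other than IGF1 replicate 1 was left out (0.059 to 0.17).

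The microsomal transferases, membrane enzymes of a separate family, moved in different directions. Mgst1 had 39.0, 37.7 and 36.3 CPM with phenylephrine, 35.8, 48.0 and 45.2 CPM with IGF1 and 69.3, 64.4 and 66.3 CPM with vehicle. Vehicle samples were highest and did not overlap the others. It was 1.77-fold lower with phenylephrine (log2 fold change -0.83, SE 0.09, adjusted p = 6e-06) and 1.55-fold lower with IGF1 (-0.63, SE 0.08, adjusted p = 6.7e-05). The IGF1 value was -0.52 without IGF1 replicate 1, which is under 1.5-fold. Without that sample the treatments also differed (-0.31, adjusted p = 1.3e-06, in place of -0.20, adjusted p = 0.077).

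Mgst3, which can form leukotriene C4 and reduce lipid hydroperoxides, had 39.5, 38.9 and 42.0 CPM with phenylephrine, 93.7, 80.01 and 84.7 CPM with IGF1 and 69.5, 77.4 and 72.8 CPM with vehicle. Its phenylephrine samples were far below all others, 1.83-fold lower than vehicle (log2 fold change -0.87, SE 0.06, adjusted p = 2.8e-08), while IGF1 samples all exceeded vehicle (0.23, SE 0.06, adjusted p = 0.0046). Mgst2, a related enzyme that also forms leukotriene C4, had 5.12, 5.12 and 5.20 CPM with phenylephrine, 2.37, 2.71 and 1.72 CPM with IGF1 and 4.08, 3.40 and 2.75 CPM with vehicle, on 72 to 202 reads. It ran opposite to Mgst3, 1.51-fold higher with phenylephrine (log2 fold change 0.59, SE 0.18, adjusted p = 0.011) and 1.51-fold lower with IGF1 (-0.60, SE 0.19, adjusted p = 0.017). The rise was not called without vehicle replicate 3 (0.45, adjusted p = 0.064) or with library size only (0.40, adjusted p = 0.078), nor the fall without vehicle replicate 1 (-0.45, 0.093) or IGF1 replicate 3 (-0.42, 0.083).

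**Figure D3:**
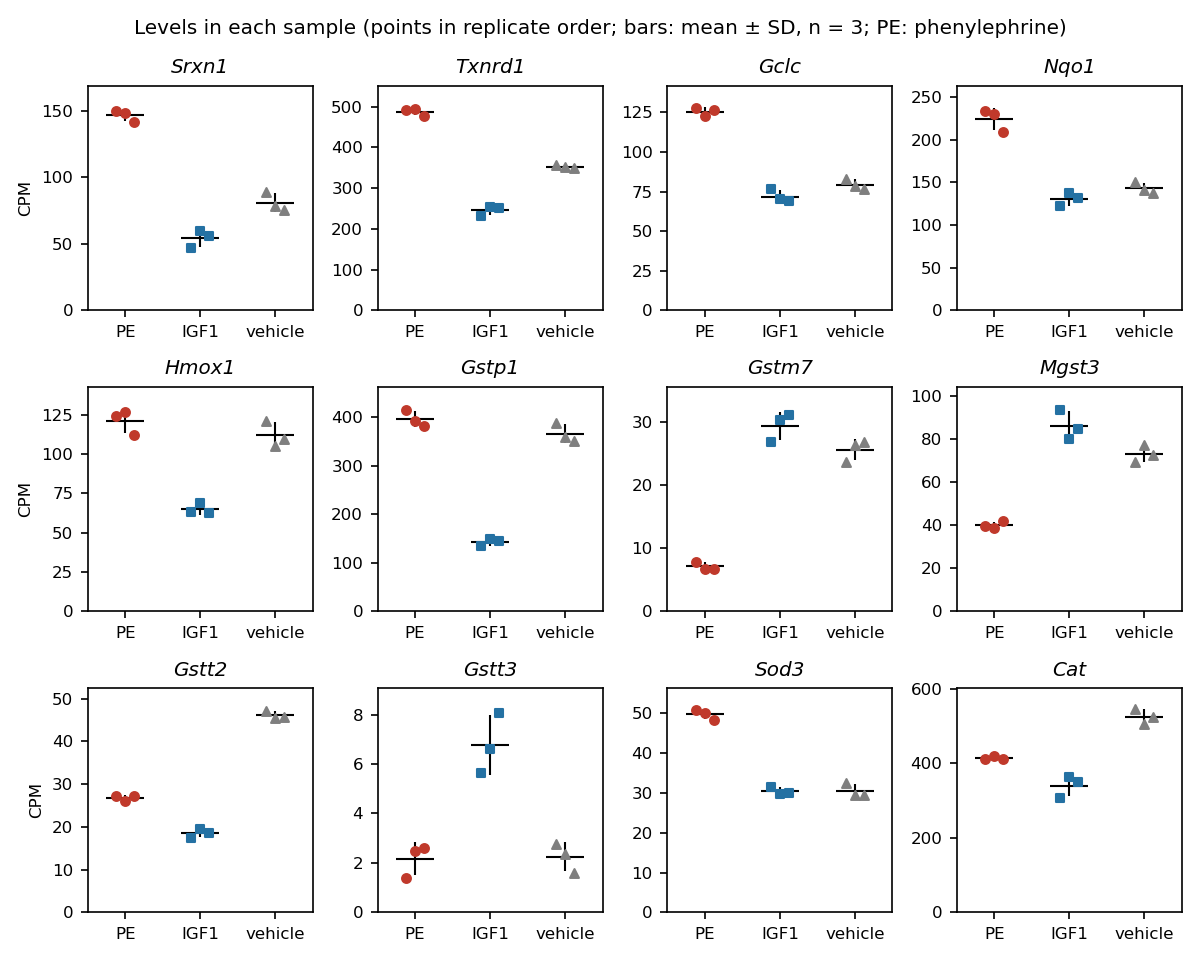
CPM (y axis, from 0) of 12 genes in each sample, by group (x axis: PE for phenylephrine, IGF1, vehicle), with the mean and SD of 3 samples as lines. Srxn1, Txnrd1, Gclc, Nqo1 and Sod3 are highest with phenylephrine, Hmox1 and Gstp1 lowest with IGF1, Gstm7 and Mgst3 lowest with phenylephrine, and Gstt3 highest with IGF1.

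Peroxiredoxins, thiol peroxidases that thioredoxin reduces, and their repair enzyme sulfiredoxin were called higher with phenylephrine in 5 of 7 genes and lower in none, but with library size only in 1 and 1. With TMM factors, 27.9% of all genes were called higher and 28.9% lower. Srxn1, sulfiredoxin, which restores over-oxidised peroxiredoxins and is a textbook NRF2 and AP-1 target, changed most. It had 150, 148 and 141 CPM with phenylephrine, 47.2, 59.3 and 56.1 CPM with IGF1 and 89.0, 78.3 and 75.2 CPM with vehicle. No samples overlapped between groups, with phenylephrine highest and IGF1 lowest. It was 1.81-fold higher with phenylephrine (log2 fold change 0.86, SE 0.08, adjusted p = 2.7e-06) and 1.49-fold lower with IGF1 (-0.57, SE 0.08, adjusted p = 0.00011), and 2.70-fold higher with phenylephrine than with IGF1. The IGF1 value was -0.49 without IGF1 replicate 1.

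The peroxiredoxins themselves moved by small amounts. Prdx3, the mitochondrial form, rose with both treatments, at 277, 259 and 259 CPM with phenylephrine, 324, 305 and 304 CPM with IGF1 and 221, 229 and 230 CPM with vehicle. IGF1 samples were highest, 1.37-fold higher (log2 fold change 0.46, SE 0.04, adjusted p = 6.5e-07), and phenylephrine was 1.17-fold higher (0.23, but 0.03 and not past the threshold with library size only). The cytosolic Prdx1 rose with both (0.14 with phenylephrine, but -0.05 with library size only, and 0.22 with IGF1), with no call for phenylephrine without vehicle replicate 2 (0.081). Between phenylephrine and IGF1 it was called without IGF1 replicate 1 (-0.10, adjusted p = 0.0088, in place of -0.08, adjusted p = 0.12). Prdx5, found in mitochondria and peroxisomes, and the cytosolic Prdx6 rose with phenylephrine (0.19 and 0.16, but -0.0045 and -0.04 with library size only). Prdx5 was called lower with IGF1 without IGF1 replicate 1 (-0.12, adjusted p = 0.0067), as was Prdx2 (-0.10, adjusted p = 0.011). Otherwise Prdx2, and Prdx4 of the endoplasmic reticulum, passed in neither comparison with vehicle.

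Of the thioredoxins and their reductases, the cytosolic Txn1 and Txnrd1 rose with phenylephrine. Txn1 had 192, 189 and 190 CPM with phenylephrine, 157, 150 and 147 CPM with IGF1 and 134, 128 and 132 CPM with vehicle. Its groups did not overlap, with vehicle lowest, and it was 1.45-fold higher with phenylephrine (log2 fold change 0.54, SE 0.04, adjusted p = 4.1e-08) and 1.15-fold higher with IGF1 (0.20, SE 0.04, adjusted p = 6e-04). Txn2, the mitochondrial thioredoxin, passed in no comparison, with log2 fold changes of -0.03 and -0.07 with phenylephrine and IGF1.

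Txnrd1, the cytosolic reductase that feeds thioredoxin with electrons from NADPH, had 492, 493 and 477 CPM with phenylephrine, 232, 254 and 251 CPM with IGF1 and 357, 353 and 349 CPM with vehicle. The groups were fully apart, with phenylephrine highest and IGF1 lowest. It was 1.38-fold higher with phenylephrine (log2 fold change 0.47, SE 0.04, adjusted p = 3.1e-07) and 1.44-fold lower with IGF1 (-0.52, SE 0.04, adjusted p = 1.5e-07), and its level with phenylephrine was 1.98-fold higher than with IGF1 (0.99, SE 0.04, adjusted p = 8.7e-11). The mitochondrial Txnrd2 did not pass in either comparison with vehicle (-0.10 and -0.08) but was called lower in both without IGF1 replicate 1 (-0.10 and -0.12, adjusted p = 0.03 and 0.015). Txnrd3 fell with both (-0.25 and -0.37).

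Among superoxide dismutases and catalase, each gene had its own pattern. Cat, the peroxisomal enzyme that splits hydrogen peroxide, had 412, 418 and 411 CPM with phenylephrine, 307, 362 and 349 CPM with IGF1 and 545, 506 and 524 CPM with vehicle. Vehicle was highest and IGF1 lowest with no overlap, 1.55-fold lower with IGF1 (log2 fold change -0.63, SE 0.05, adjusted p = 2.9e-07, and -0.56, under 1.5-fold, without IGF1 replicate 1) and 1.27-fold lower with phenylephrine (-0.34, SE 0.05, adjusted p = 7.7e-05).

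Sod2, the mitochondrial manganese enzyme, had 217, 223 and 215 CPM with phenylephrine, 287, 291 and 290 CPM with IGF1 and 231, 238 and 244 CPM with vehicle. IGF1 samples were highest (log2 fold change 0.28, SE 0.04, adjusted p = 2e-05) and phenylephrine samples lowest (-0.13, SE 0.04, adjusted p = 0.011), and phenylephrine was 1.33-fold lower than IGF1. The phenylephrine call ended without phenylephrine replicate 3 (adjusted p = 0.051). Sod1, the cytosolic copper-zinc enzyme, had 430, 395 and 387 CPM with phenylephrine, 422, 395 and 418 CPM with IGF1 and 420, 426 and 443 CPM with vehicle. Its groups overlapped and it did not pass with phenylephrine (-0.09, adjusted p = 0.12) or IGF1 (-0.06, adjusted p = 0.3), though it was called lower with phenylephrine without IGF1 replicate 1 (-0.09, adjusted p = 0.019) or phenylephrine replicate 1 (-0.14, adjusted p = 0.034).

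Sod3, the secreted form, had 50.8, 50.2 and 48.3 CPM with phenylephrine, 31.6, 29.6 and 30.0 CPM with IGF1 and 32.5, 29.6 and 29.5 CPM with vehicle. Every phenylephrine sample was above every other, 1.63-fold higher than vehicle (log2 fold change 0.70, SE 0.06, adjusted p = 7.7e-08), and IGF1 samples overlapped vehicle (-0.01, adjusted p = 0.92). Of 10 smooth muscle and pericyte markers, 5 rose with phenylephrine and 2 fell (Myh11, -0.30, and Smtn, -0.88). They summed to 3394 to 3468 CPM with phenylephrine, 2074 to 2750 CPM with IGF1 and 2230 to 2339 CPM with vehicle. Acta2 weighed heavily in these sums, with means of 1203 CPM with phenylephrine and 806 CPM with vehicle. It had 1112, 725 and 750 CPM in the IGF1 samples. The part of these cells in the result was not tested.

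Of the classical NRF2 targets outside the glutathione system, Nqo1, which reduces quinones, had 234, 230 and 209 CPM with phenylephrine, 122, 138 and 132 CPM with IGF1 and 150, 142 and 138 CPM with vehicle. Phenylephrine stood apart from both other groups, 1.57-fold higher than vehicle (log2 fold change 0.65, SE 0.05, adjusted p = 1.6e-07). IGF1 and vehicle overlapped by 1 sample (-0.13, adjusted p = 0.062), with a call of lower without vehicle replicate 3 (-0.17, adjusted p = 0.048) or IGF1 replicate 2 (-0.18, adjusted p = 0.019). Nqo2, a quinone reductase that does not use NADPH, had 23.6, 24.0 and 21.7 CPM with phenylephrine, 32.9, 36.5 and 39.5 CPM with IGF1 and 30.0, 31.2 and 30.7 CPM with vehicle. It ran opposite to Nqo1, 1.33-fold lower with phenylephrine (log2 fold change -0.41, SE 0.07, adjusted p = 0.00015) and 1.19-fold higher with IGF1 (0.25, SE 0.07, adjusted p = 0.007), the rise not being called without IGF1 replicate 3 (0.17, adjusted p = 0.059) or with library size only (0.17, adjusted p = 0.12).

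Hmox1, the inducible heme oxygenase, had 124, 127 and 112 CPM with phenylephrine, 63.4, 68.7 and 62.5 CPM with IGF1 and 121, 105 and 110 CPM with vehicle. IGF1 samples were far below the rest, 1.73-fold lower than vehicle (log2 fold change -0.79, SE 0.06, adjusted p = 1.1e-07). Phenylephrine samples overlapped vehicle (0.11, adjusted p = 0.13) and were called higher without vehicle replicate 1 (0.16, adjusted p = 0.045) or phenylephrine replicate 3 (0.16, adjusted p = 0.047). The constitutive Hmox2 passed in no comparison (0.02 with phenylephrine, but -0.17 and past the threshold with library size only). Endothelial markers moved in the same direction as the IGF1 falls: 8 of 10 fell and none rose with IGF1, against 23.4% and 24.7% of all genes. They summed to 196.4 to 212 CPM with phenylephrine, 122.6 to 125.1 CPM with IGF1 and 176.2 to 197.6 CPM with vehicle. Eng weighed heavily in these sums, with means of 131, 83.1 and 104 CPM in that order. With phenylephrine 2 rose (Eng, 0.34, and Egfl7, 1.22) and 1 fell (Kdr, -0.65). The part of endothelial cells in the IGF1 falls was not tested. Macrophage and leukocyte markers, of a cell type rich in Hmox1, summed to 72.8 to 92.3, 73.4 to 80.8 and 79.0 to 90.5 CPM with phenylephrine, IGF1 and vehicle, so the groups overlapped. Of 9 tested, none rose and 1 fell with IGF1 (Lyz2, -0.42, adjusted p = 0.0023, named after its value was seen), and none rose and 2 fell with phenylephrine (Adgre1 and Ptprc). Their part in the Hmox1 fall was not tested.

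**Figure D4:**
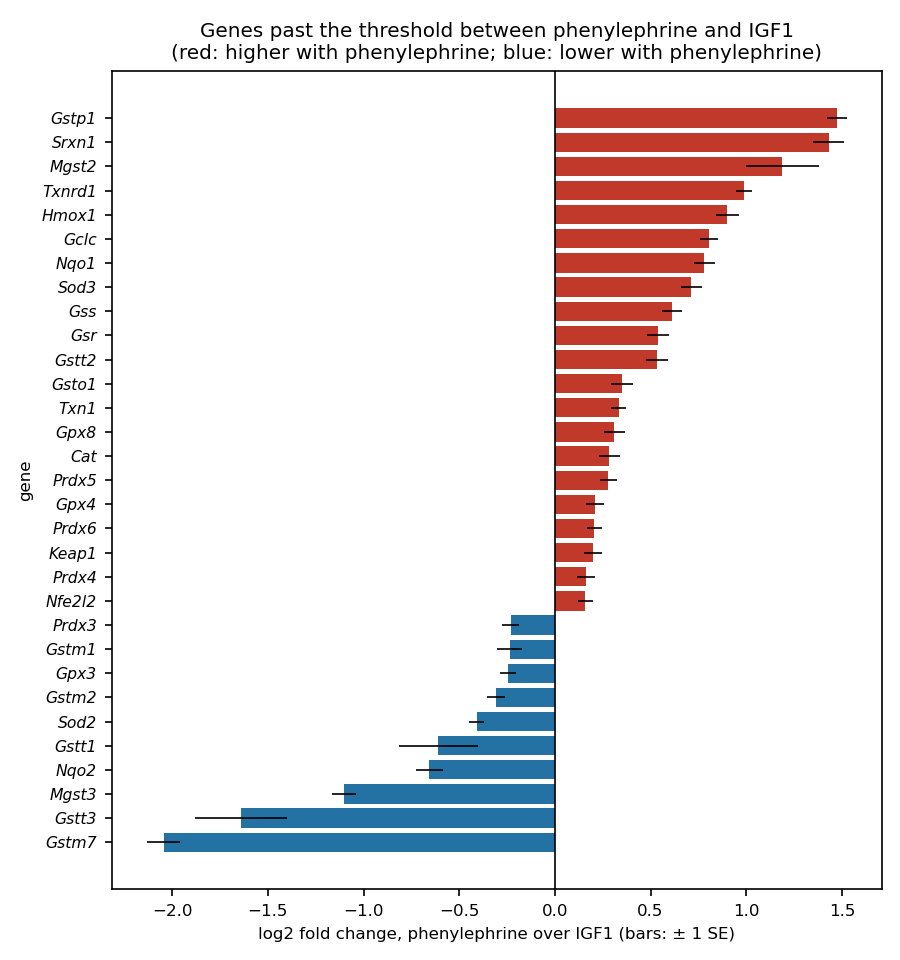
Log2 fold change of phenylephrine over IGF1 (x axis, bars from 0 with 1 SE) for the 31 genes that passed an adjusted p of 0.05 (y axis), red where phenylephrine was higher and blue where it was lower. Gstp1 (1.48) and Srxn1 (1.43) head the 21 higher genes and Gstm7 (-2.05) and Gstt3 (-1.64) the 10 lower ones; with library size only, Keap1, Nfe2l2, Prdx4, Prdx6, Gpx4 and Cat no longer passed.

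Partners and regulators of NRF2 outside the symbol rule included genes that moved in opposite directions. Of 23 tested genes, 8 rose and 3 fell with phenylephrine (median log2 fold change -0.02), but 5 rose and 13 fell with library size only. With IGF1 9 rose and 7 fell (median 0.08), but 5 rose and 9 fell with library size only. For this list and those below, the shares of all genes called higher and lower were 27.9% and 28.9% with phenylephrine. These shares were 24.7% and 23.4% with IGF1, and 27.1% each between the treatments. The small Maf gene Maff, whose protein pairs with NRF2, had 57.7, 55.6 and 60.3 CPM with phenylephrine, 8.76, 8.27 and 8.32 CPM with IGF1 and 35.1, 36.4 and 33.3 CPM with vehicle. No groups overlapped, and it was 1.66-fold higher with phenylephrine (log2 fold change 0.73, SE 0.05, adjusted p = 5e-08) and 4.14-fold lower with IGF1 (-2.05, SE 0.06, adjusted p = 1e-11).

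Mafk, another small Maf gene, had 346, 353 and 338 CPM with phenylephrine, 137, 64.8 and 69.5 CPM with IGF1 and 148, 150 and 140 CPM with vehicle. It was 2.37-fold higher with phenylephrine (log2 fold change 1.24, SE 0.28, adjusted p = 0.0095). IGF1 replicate 1 lay near vehicle and the other IGF1 samples far below, so IGF1 against vehicle did not pass (-0.70, adjusted p = 0.088), whereas without that sample it was -1.12 (adjusted p = 5.2e-26). With all samples, Mafk was called lower by DESeq2 (adjusted p = 0.046), limma-voom (0.0037), the non-robust fit (0.016) and library size only (0.036). Sqstm1, whose protein p62 binds KEAP1, fell with both (-0.20 with phenylephrine and -1.09 with IGF1). Bach1, a repressor at antioxidant response elements, fell with IGF1 (-0.68, adjusted p = 2.9e-05) and had -0.13 with phenylephrine (adjusted p = 0.25). Cdkn1a, encoding the NRF2-stabilising p21, rose with IGF1 (0.58), and Brca1 fell with phenylephrine (-0.43) and rose with IGF1 (0.40). In the direct comparison of phenylephrine with IGF1, 8 were higher and 4 lower, but 5 were higher and 10 lower with library size only. The extremes were Maff (2.78), Mafk (1.94), Brca1 (-0.83) and Palb2 (-0.47).

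Transcripts of genes listed for NADPH supply, on which both thiol systems draw, were mostly higher with phenylephrine. NADPH itself was not measured. Of 21 tested genes, 13 rose and 5 fell (median 0.33), while 27.9% of all genes rose and 28.9% fell. Highest were the mitochondrial one-carbon enzymes Mthfd2 (2.14) and Shmt2 (1.52), with Aldh1l1 (-0.85) and the transhydrogenase Nnt (-0.55) lowest. With IGF1 9 genes of this list rose and 3 fell (median 0.14), led by Mthfd2 (1.255, and 0.77 without IGF1 replicate 1) and Aldh1l2 (0.68), with Idh1 (-0.29) and Nadk2 (-0.27) lowest. The IGF1 call of Mthfd2 ended without any 1 vehicle sample (0.061 to 0.065), and 5 genes fell in place of 3 without IGF1 replicate 1. Between phenylephrine and IGF1, 10 were higher and 6 lower, with Mthfd1l (1.35) among the higher and Aldh1l1 (-1.22) and Nnt (-0.78) lowest. Mthfd2 was not called there (0.89, adjusted p = 0.057) but was without IGF1 replicate 1 (1.37, adjusted p = 4.5e-29), with DESeq2 (adjusted p = 0.02) and with limma-voom (adjusted p = 0.0015).

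Of 20 genes of cystine supply and glutathione turnover, 4 rose and 6 fell with phenylephrine (median -0.20). Chac1, which degrades glutathione, was highest (1.5), followed by Slc3a2 (0.93), the heavy chain of the cystine transporter. Oplah (-0.93), a recycling enzyme of the glutathione cycle, and the mitochondrial carrier Slc25a40 (-0.38, not called on leaving out any one of the vehicle and phenylephrine samples, 0.051 to 0.12) were lowest. With IGF1 1 rose (Ggct, 0.41) and 8 fell (median 0.09), lowest the glutathione conjugate exporter Abcc1 (-0.96) and the peptidase Dpep1 (-0.86). Without IGF1 replicate 1, 5 of 21 rose and 8 fell. Slc7a11, the light chain of the cystine transporter and a textbook NRF2 target, had 9.10, 10.3 and 8.76 CPM with phenylephrine, 7.57, 10.1 and 9.89 CPM with IGF1 and 8.91, 8.26 and 8.01 CPM with vehicle. Its groups overlapped, and neither comparison passed (0.16, adjusted p = 0.26 with phenylephrine, and 0.14, adjusted p = 0.35 with IGF1), except IGF1 without IGF1 replicate 1 (0.25, adjusted p = 0.04). In the direct comparison of phenylephrine with IGF1, 8 were higher and 7 lower, from Slc3a2 (1.40) and Chac1 (1.22) to Ggt5 (-0.90) and Cbs (-1.34). The call of Ggt5 ended without phenylephrine replicate 3 (0.062) or IGF1 replicate 1 (0.077).

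In the wider thioredoxin network, 8 of 20 rose and 4 fell with phenylephrine (median 0.09), but 5 rose and 8 fell with library size only. With IGF1 10 rose and 5 fell (median 0.17). Txnip, the inhibitor of thioredoxin, had 772, 793 and 755 CPM with phenylephrine, 530, 570 and 587 CPM with IGF1 and 1461, 1512 and 1562 CPM with vehicle. Vehicle was far above both treatments, which did not overlap (log2 fold change -0.97, SE 0.05, adjusted p = 8.4e-10 with phenylephrine, and -1.43, SE 0.05, adjusted p = 3.1e-11 with IGF1). Sesn1, a stress-responsive sestrin, fell with both (-1.16 and -0.70), while Sesn3 (0.95) and Glrx3 (0.51) rose with IGF1 and Txndc12 (0.46) and Txndc17 (0.41) with phenylephrine. Between phenylephrine and IGF1, 8 were higher and 9 lower, from Txndc12 (0.76) and Txnip (0.46) to Glrx (-0.65) and Sesn3 (-1.03).

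Of 24 heme and iron genes, 11 rose and 10 fell with phenylephrine (median 0.05), but 5 rose and 12 fell with library size only. With IGF1 8 rose and 9 fell (median 0.07). The transferrin receptor Tfrc and the first heme synthesis enzyme Alas1 rose with both (Tfrc by 0.98 with phenylephrine and 1.45 with IGF1, Alas1 by 0.68 and 0.86). Lowest were the metallothionein Mt1a (-0.61) and the heme transporter Slc48a1 (-0.40) with phenylephrine, and the metallothionein Mt2A (-1.07) and the iron exporter Slc40a1 (-0.96) with IGF1. In the direct comparison of phenylephrine with IGF1, 8 were higher and 6 lower, with Slc40a1 (0.89) and Mt2A (0.75) highest and Tfrc (-0.46) among the lower.

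Of 25 other detoxification genes linked to NRF2, 6 rose and 10 fell with phenylephrine (median -0.09), and 5 rose and 9 fell with IGF1 (median -0.09). The cytochrome P450 reductase Por (1.08) and the aldo-keto reductase Akr1b8 (0.97) were highest and the epoxide hydrolase Ephx2 (-1.17) and the zeta class transferase Gstz1 (-0.98) lowest with phenylephrine. With IGF1, Ptgr2 (0.37) and the glyoxalase Hagh (0.33) were highest, and Ptgr1 (-1.39) and Osgin1 (-1.12), both known NRF2 targets, lowest. Between phenylephrine and IGF1, 8 were higher and 11 lower, from Ptgr1 (1.54) and Akr1b8 (1.39) to Gstcd (-0.43) and Ephx2 (-0.86).

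Of 20 NADPH oxidase genes and other sources of reactive oxygen, 4 rose and 4 fell with phenylephrine (median -0.22), but 1 rose and 7 fell with library size only. With IGF1 4 rose and 7 fell (median -0.22). Maoa, monoamine oxidase A, rose with phenylephrine (0.83), as did Rac1 (0.29, but 0.09 and not past the threshold with library size only). The small GTPase Rac2, an oxidase activator of blood cells, fell with phenylephrine (-0.62) and rose with IGF1 (0.86), as did Poldip2 with IGF1 (0.28). Duox1 was lower with both (-0.85 and -0.86), in calls that ended without vehicle replicate 1 or 2, phenylephrine replicate 1 or 3 (phenylephrine) and IGF1 replicate 2 or 3 (IGF1) (adjusted p = 0.063 to 0.14). Its maturation factor Duoxa1 fell with IGF1 (-1.61). In the direct comparison of phenylephrine with IGF1, 5 were higher and 2 lower, with Duoxa1 (1.15, not called without phenylephrine replicate 1 or 3 or IGF1 replicate 1 or 3, 0.056 to 0.1, or with library size only, 0.054) and Maoa (0.65) highest and Rac2 (-1.48) and Poldip2 (-0.23) the lower ones.

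Selenium is part of the active site of several glutathione peroxidases (Gpx1, Gpx3 and Gpx4 among them) and of thioredoxin reductases. Of 18 tested genes of selenoproteins and their synthesis, 3 rose and 8 fell with phenylephrine (median -0.09). With IGF1 6 rose and 6 fell (median -0.03), but 4 rose and 8 fell with library size only. Seli (0.51) and Selt (0.34) were highest and Pstk (-0.78), a kinase of selenocysteine synthesis, and Sepw1 (-0.79, not called without vehicle replicate 1 or 3 or any 1 phenylephrine sample, 0.053 to 0.084) lowest with phenylephrine. With IGF1, Selt (0.44) and Scly (0.42, not called without vehicle replicate 3, 0.081, or with library size only, 0.054) were highest and the selenium carrier Sepp1 (-0.59) and Secisbp2l (-0.52) lowest. Between phenylephrine and IGF1, 6 were higher and 8 lower, from Selk (0.45) and Sepp1 (0.38) to Scly (-0.53) and Pstk (-0.77).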

How the data were processed

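RNA sequencing of 9 samples in 3 groups of 3 was analysed from the deposited table, which holds whole-number read counts per gene that were not normalized. The rat genome build rn5 and the tools STAR, HTSeq and DESeq are named in the submitters' processing notes. Their versions and roles, and whether counting used strand, are not given in the sources used here. Libraries were made with a NuGEN Ovation kit from total RNA, per the labels' protocols. No table row held unassigned reads.

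Counts were filtered with filterByExpr (minimum count 10, minimum total count 15) in edgeR 4.0.16 under R 4.3.3, scaled by TMM factors and fitted by group over all 9 samples with robust quasi-likelihood dispersions. Adjusted p-values (Benjamini-Hochberg over 11873 genes, threshold 0.05) and log2 fold changes are from this model unless another is named. SEs were taken as the size of the log2 fold change over the square root of F, so it uses the spread of all 9 samples. The code was tested on simulated data.

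The genes, the 8 other gene lists and the 8 marker lists were chosen with earlier results of these data known, so counts over them are descriptions. Counts by family, list or marker set are to be read beside the shares of all genes called, given with the main counts. Per-sample values are given for genes past the threshold and at least 1.5-fold in any comparison and for 14 fixed genes. From other lists the 2 highest and 2 lowest past the threshold of a comparison are named, with Slc7a11, Txnip and Bach1. Some genes that this rule names are not reported here. Per-sample values of Txn1, Prdx3, Maff, Mafk, Slc7a11 and Txnip were added after their values were seen. Alternatives were DESeq2 1.42.0, limma-voom (limma 3.58.1), median-of-ratios factors, library size only, other filters, a non-robust fit, only the groups compared, the replicate number as a block, an adjusted p of 0.01 and leaving out each sample in turn. Family and list counts under other scalings and without IGF1 replicate 1 were added after seeing the data. Promoters are from RefSeq, build GRCr8, and other coordinates are not given because the builds differ.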

Additional observations from a re-analysis of the deposited data

How the results depend on the processing

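Scaling by library size only, with no normalization factors, was the alternative that moved counts most. It shifted the median log2 fold change of all genes to -0.22 with phenylephrine (from -0.03), -0.08 with IGF1 (from -0.0018) and -0.11 between phenylephrine and IGF1 (from -0.0025), and the share of calls that were higher to 23.5%, 36.0% and 32.8% (from 49.1%, 51.3% and 49.95%). Under it 7 antioxidant genes in place of 15 rose with phenylephrine, 1 in place of 5 by at least 1.5-fold, and 26 in place of 16 fell. With IGF1 31 in place of 19 fell, and 18 in place of 10 were lower with phenylephrine than with IGF1. Among genes past the threshold under either scaling, it turned the sign with phenylephrine of Gpx8 (-0.022), Hmox2 (-0.17), Nfe2l2 (-0.14), Prdx1 (-0.051), Prdx5 (-0.0045) and Prdx6 (-0.035), and of Ptgr2 (-0.13) and Poldip2 (-0.14) outside the rule. Gstp1 (-0.08), Hmox1 (-0.08) and Prdx4 (-0.14) also turned negative with phenylephrine, Gpx1 (-0.0041) and Gpx3 (-0.03) with IGF1, and Hmox2 (-0.04) and Txn2 (-0.07) between the treatments, past the threshold under neither scaling. Without IGF1 replicate 1 the sign of Gpx1 with IGF1 turned to -0.12, and over each sample left out in turn it ran from -0.12 to 0.19.

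Counts of antioxidant genes stayed within 1.5 times under the other alternatives. DESeq2 gave 15 higher and 15 lower with phenylephrine, 8 and 17 with IGF1, and 21 and 10 between the treatments. Leaving out 1 sample at a time gave 13 to 17 and 13 to 19, 6 to 8 and 14 to 23, and 21 to 22 and 9 to 14. Of 141 results for single antioxidant genes, 81 kept their side of the threshold under all 19 alternatives, of which 71 also kept their sign and 10, past the threshold in no fit, did not.

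Deviations of samples with the same replicate number from their group means correlated at -0.08 to 0.02 over all tested genes. Noise in low counts also weakens such correlations, so they cannot decide whether samples were paired. With the number as a block, 15 rose and 15 fell with phenylephrine, 7 and 17 with IGF1, and 21 and 10 between the treatments. Depth limits Gstt1, Gstt3, Gsto2 and Mgst2, which rested on 41 to 385 reads per sample.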
